A study of Mus musculus with 18 samples.

Results

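The genes of oxidative phosphorylation encode the subunits of the 5 protein complexes of the inner mitochondrial membrane that use electrons from nutrients to make ATP. All non-control probes of the arrays whose gene name starts with Nduf, Sdha to Sdhd, Uqcr, Cox4 to Cox8 or Atp5 were taken, which gave 112 probes of 82 genes among 27888 features in all, and the probe with the highest mean over the 18 arrays stood for its gene. Complex I (Nduf names) had 37 genes, complex II (Sdha to Sdhd) 4, complex III (Uqcr) 7, complex IV (Cox) 18 and complex V (Atp5) 16. The names also bring in genes that are not subunits: Ndufaf1 is an assembly factor of complex I, Cox7a2l is a factor of respiratory supercomplexes, and Cox4nb and Atp5s are now named Emc8 and Dmac2l in RefSeq. Ndufa4, counted here under complex I by its name, is now placed in complex IV. Of the 82 genes, 80 exceeded background on both arrays of at least 1 group and were tested. The exceptions were Cox4i2, above background on 1 array, and Cox8b, above background on 0 arrays. In all, 78 genes were above background on all 18 arrays.

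Complexes I to IV form the respiratory chain: complex I takes electrons from NADH and complex II from succinate, complex III passes them to cytochrome c, and complex IV, cytochrome c oxidase, gives them to oxygen. Complexes I, III and IV pump protons as they do so, and complex V, the ATP synthase, lets the protons flow back and makes ATP. Most of the subunits are housekeeping proteins, but several nuclear-encoded subunits of complex IV exist as tissue-restricted isoforms: Cox6a2 and Cox7a1 are the forms of heart and skeletal muscle, and Cox6b2 and Cox8c are known from testis. Germ cells move between more glycolytic and more oxidative metabolism as they develop, which makes the family of interest in this series.

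RNA of 18 mouse samples was measured on 1-colour Agilent whole-genome arrays, 2 arrays in each of 9 groups, all labelled male and of mixed C57BL/6 and 129SV background. Embryonic stem (ES) cells, grown undifferentiated with Lif on feeder fibroblasts, came from a line with a Stella-GFP reporter (on a bacterial artificial chromosome) and a line with a Dazl-GFP reporter, and each was sorted into GFP+ and GFP- cells. In vitro primordial germ cells (PGCs, the founders of the germ line) were GFP+ cells sorted after feeder removal and differentiation on gelatin, at day 7 from the Stella-GFP line and at days 12 and 16 from the Dazl-GFP line. The remaining germ cells were Dazl-GFP+ cells sorted from embryonic gonads at E13.5 and from juvenile testes at P7-P11. Every GFP+ group is thus a cell population defined by its reporter, and each in vitro group comes from 1 line. Levels are log2 signals relative to the 75th percentile of the same array, so a level of 0 is the 75th percentile and a difference of 1 is a doubling. Changes are differences of these levels with their standard error, from a limma fit of all 9 groups (n = 2 arrays a group). Calls were made below an adjusted p of 0.05 (Benjamini-Hochberg, 18981 features). Whether the 2 samples of a group were separate cultures or animals is not given in the labels. The p-values therefore cover only the spread between these samples, which may be technical. For each gene that spread is estimated over all 9 groups together. It can thus be too small for groups whose arrays differed more, such as E13.5 and juvenile testis. Levels of different probes cannot be compared with each other.

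The 75th percentile of the signal was 103 to 178 on the arrays of ES cells, day 12 and day 16, 290 to 321 at day 7 and 343 to 474 on the E13.5 and juvenile arrays. The replicate difference of the tested genes had a median size between 0.04 (day 16) and 0.42 (juvenile testis), and it was 0.28 at E13.5. Dazl had levels of 4.78 to 5.42 in all Dazl-GFP+ germ cells of culture, gonad and testis, against -3.42 and -3.29 in the Dazl-GFP- ES cells. The library labelled E13.5 replicate 1 went against its label: the Y-linked Ddx3y (-7.45) and Eif2s3y (-7.29) were not above background there, and both were above background on every other array. Counts of called genes in the comparisons that hold it, and many of the changes named there, are therefore also given without it. The E13.5 and juvenile arrays all lay on 1 slide and the day 7 arrays on 2 slides of their own, each set with its own scan day. Slide and scan day therefore cannot be told apart from the group in E13.5 or day 7 against other cultured cells. The day 7 arrays also had an extraction protocol of their own, which cannot be told apart from that group either. In sorted bulk samples, fewer cells of a type and less RNA per cell cannot be told apart.

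The promoters of 4 members are shown because these genes carry the main patterns below: Cox6b2 and Cox7a1, isoforms that were higher in cultured germ cells than in ES cells, and Atp5e and Uqcrh, subunits of complexes V and III that were among the largest rises at E13.5. Each run is the 250 bases before the annotated start of the gene, written 5′ to 3′ on the gene's strand, from RefSeq on build GRCm38.p6. Capitals mark CCGGAAG, the core bound by ETS factors such as the GA-binding protein, a known regulator of respiratory chain genes, read on either strand. The 4 windows are chr7:4753095-4753344 (minus strand) for Cox6b2, chr7:30183921-30184170 (plus strand) for Cox7a1, chr2:174464102-174464351 (minus strand) for Atp5e and chr4:116075071-116075320 (minus strand) for Uqcrh.
Cox6b2: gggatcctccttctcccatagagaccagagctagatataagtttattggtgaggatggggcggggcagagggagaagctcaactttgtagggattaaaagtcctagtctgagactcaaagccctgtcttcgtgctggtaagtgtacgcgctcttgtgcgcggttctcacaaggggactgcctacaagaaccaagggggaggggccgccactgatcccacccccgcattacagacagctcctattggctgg
Cox7a1: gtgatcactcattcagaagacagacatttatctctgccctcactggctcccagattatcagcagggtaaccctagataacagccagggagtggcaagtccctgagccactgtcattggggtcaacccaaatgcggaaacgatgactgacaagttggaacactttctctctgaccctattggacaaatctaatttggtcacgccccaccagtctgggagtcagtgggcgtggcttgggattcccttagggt
Atp5e: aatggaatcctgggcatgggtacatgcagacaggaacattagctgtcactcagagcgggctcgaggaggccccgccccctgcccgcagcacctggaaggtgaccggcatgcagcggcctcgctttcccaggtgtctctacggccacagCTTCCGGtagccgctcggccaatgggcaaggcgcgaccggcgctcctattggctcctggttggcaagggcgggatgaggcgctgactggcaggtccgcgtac
Uqcrh: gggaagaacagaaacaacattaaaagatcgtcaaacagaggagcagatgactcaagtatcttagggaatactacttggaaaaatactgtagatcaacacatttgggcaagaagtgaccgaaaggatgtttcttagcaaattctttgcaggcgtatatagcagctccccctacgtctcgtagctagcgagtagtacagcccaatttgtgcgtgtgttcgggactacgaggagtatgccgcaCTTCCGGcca

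In both Atp5e and Uqcrh the motif stands on the reverse strand of the window, as CTTCCGG. Cox6b2 and Cox7a1 do not hold these letters in this window. A promoter was at hand for 67 of the members, and 12 of them (17.9%) held CCGGAAG on either strand, against 7.05% of all 27025 promoters of the same length: Atp5e, Atp5h, Atp5l, Cox6a1, Cox6b1, Ndufaf1, Ndufb6, Ndufb7, Ndufs3, Sdhd, Uqcr and Uqcrh. CGCATGC, the core of the site bound by the nuclear respiratory factor NRF1, was held on either strand by 8 (11.9%), namely Atp5g2, Atp5k, Atp5l, Cox6a1, Ndufa11, Ndufa6, Ndufa8 and Sdhb, against 3.07% of all. The E-box CACGTG was held by 6 (8.96%) against 6.05%, and TATAAA by 5 (7.46%) against 13%, also on either strand. Atp5l and Cox6a1 held both CCGGAAG and CGCATGC. Matches of different motifs were counted separately, whether or not they overlapped. The median number of CpG dinucleotides in the window was 14 over the members and 6 over all promoters, with 4 in Cox7a1, 8 in Cox6b2, 11 in Uqcrh and 19 in Atp5e.

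The median level of the 80 genes was highest at E13.5 and lay between 4.36 and 4.86 on all other arrays. It was 5.55 and 5.56 on the E13.5 arrays. It was 4.75 to 4.86 in Stella-GFP ES cells, 4.61 to 4.70 in Dazl-GFP ES cells, 4.44 and 4.46 at day 7, 4.69 and 4.72 at day 12, and 4.74 and 4.72 at day 16. The juvenile arrays had 4.36 and 4.76, which span nearly the whole range of the cultured cells. By complex, complex I had medians of 5.43 and 5.46 at E13.5 and 4.15 to 4.75 on the other 16 arrays. The ATP synthase had 6.38 and 6.58 at E13.5, against 5.77 and 5.75 at day 16 and 5.28 and 5.61 in juvenile testis. Complex IV had 4.83 and 4.6 at E13.5 and its lowest values, 2.71 and 3.30, in juvenile testis. Complex II, the only complex that is also an enzyme of the citric acid cycle, moved least in its median: 3.76 and 3.7 at E13.5, within the 3.40 and 3.78 of Stella-GFP+ ES cells.

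**Figure D1:**
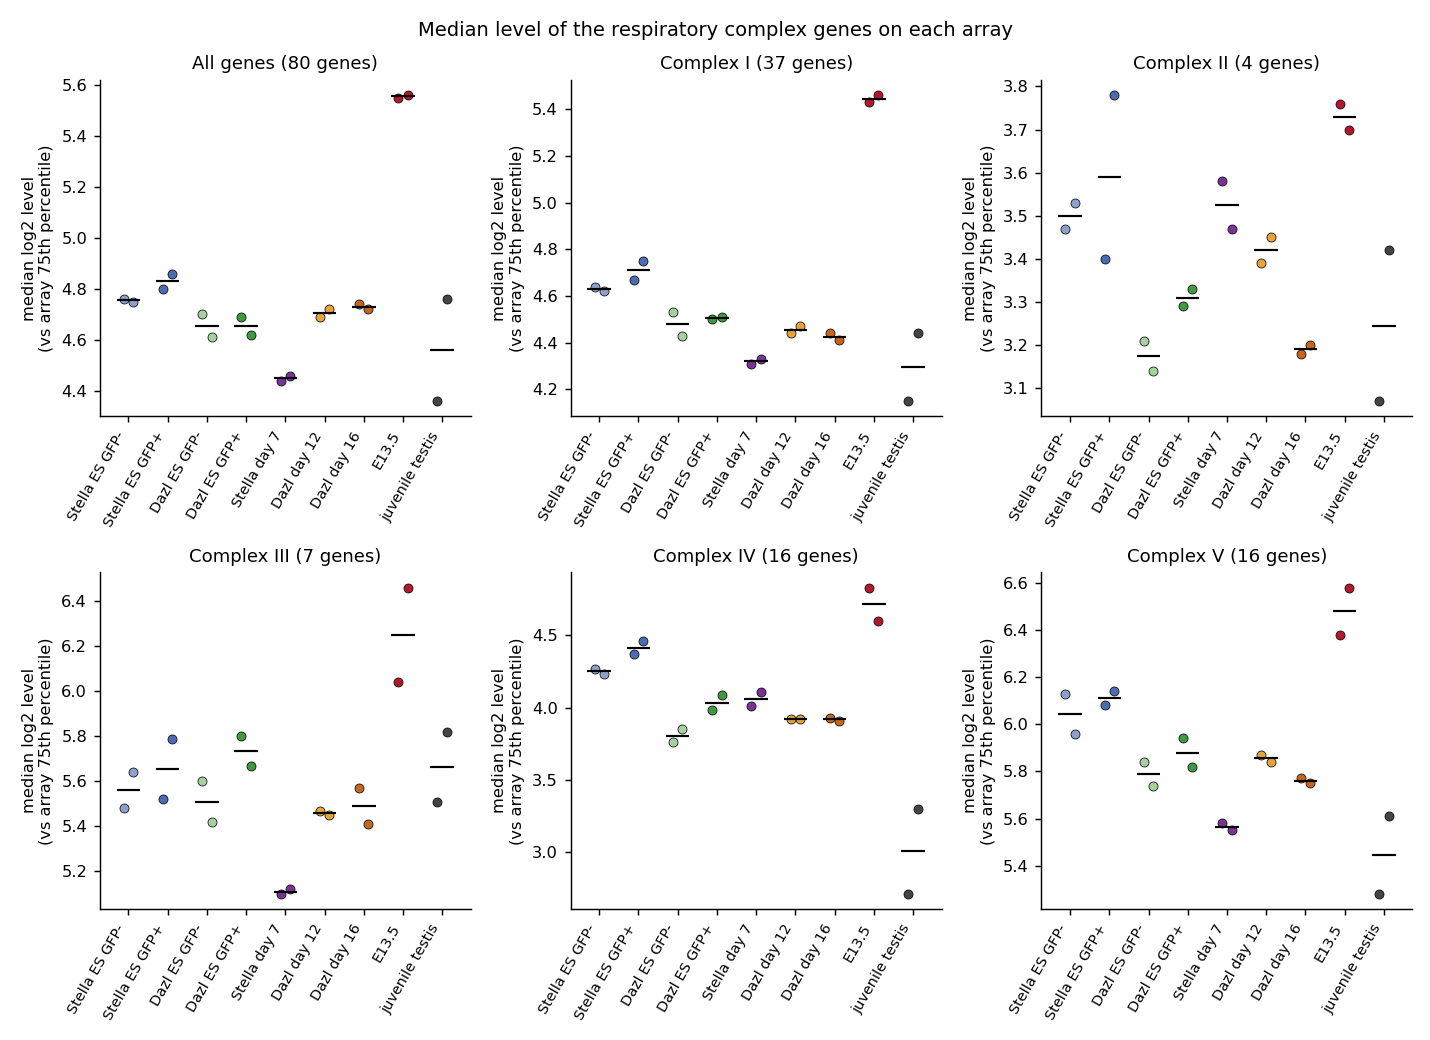
Median level of the tested genes of each complex (log2 relative to the array's 75th percentile, vertical axes not starting at 0) in the 9 groups. Dots are arrays and bars the mean of the 2 arrays of a group. Complexes I, III, IV and V stand highest at E13.5, and complex IV is lowest in juvenile testis, where its arrays read 2.71 and 3.30.

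Over the 9 groups together, limma's F test called 61 of the 80 genes (76.2%), against a background of 76.2% of all features, so the family differed between groups about as often as any measured gene. By complex these were 30 of 37 genes in complex I, 2 of 4 in complex II, 6 of 7 in complex III, 11 of 16 in complex IV and 12 of 16 in complex V. The group means of a gene spanned a median of 2.46-fold and at least 1.3-fold, with a median SD of 0.08 between arrays of a group. The widest span, that of Cox8c, has no measured fold, since its low groups were near or below background. The 10 genes with the smallest F-test p were Cox6b2, Cox6a2, Ndufb5, Cox8c, Cox7a1, Atp5e, Ndufs7, Ndufa6, Cox4nb and Ndufaf1. That list holds all 4 of the tissue-restricted complex IV isoforms that were tested. E13.5 had the highest group mean for 54 of the 80 genes, while the lowest lay in juvenile testis for 33 and at day 7 for 21.

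On both E13.5 arrays, 44 of the 80 genes lay above all 14 arrays of cultured cells (background 17.7% of features). They were 27 of 37 genes of complex I, 4 of 7 of complex III, 7 of 16 of complex V, 5 of 16 of complex IV and, in complex II, Sdha, the flavoprotein that oxidises succinate. Only Atp5h and Ndufs8 lay below all cultured arrays (background 12.6%). For Atp5h this depends on the probe: from day 16 to E13.5 the reported probe changed by -0.42. A second probe of Atp5h, also above background on all 18 arrays, changed by 0.33. Without the library labelled E13.5 replicate 1, the other E13.5 array lay above all cultured arrays in 54 genes (26.4% of features) and below them in 2 (19.6%). On both juvenile arrays, 22 genes lay below all 16 other arrays (background 12.2%), among them 10 of complex I, 6 of complex V and the complex IV subunits Cox5a, Cox6b2 and Cox7b. Cox8c and Ndufa11 lay above all 16 (background 11.9%).

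No oxidative phosphorylation gene was called in either sort of ES cells, where few features were called at all. Between GFP+ and GFP- cells of the Stella-GFP line, limma called 0 of 80 (background 0.427%) and none had an unadjusted p under 0.05. The median change was 0.06, against 0.01 over all features. For the Dazl-GFP line it also called 0 of 80 (background 2.83%), with 1 gene higher (Cox8c) and 1 lower (Cox6a2) at an unadjusted p under 0.05, and the median change was 0.09 against 0.05. Both of these genes were near or below background in ES cells. The difference between the sorts was called for 0 genes (background 0.0316%), with 0 at an unadjusted p under 0.05. The counts of called genes were 0 in every alternative run. A share of 0 of 80 is near the background in both sorts. Marker genes differed between GFP+ and GFP- cells of the Dazl-GFP line. The summed level of 12 fibroblast genes was 5.37 to 5.49 in GFP+ and 3.26 to 3.33 in GFP- cells. That of 7 ES cell genes was 7.71 to 7.72 and 6.99 to 7.04, and that of 8 germ cell genes 4.54 to 4.6 and 3.27 to 3.39. Their part in the result was not tested.

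At day 7 the Stella-GFP+ PGCs had lower levels of several subunits than the Stella-GFP+ ES cells and higher levels of a pair of complex IV isoforms. Cox6b2, the testis form of a subunit at the cytochrome c side of complex IV, read 1.94 and 2.22 in ES cells and 3.84 and 3.61 at day 7. Cox7a1 read 2.92 and 3.58 in ES cells and 4.85 and 4.68 at day 7. In both genes the groups did not overlap, and limma called the rises of 1.64 ± 0.24 (adjusted p = 0.00101) and 1.51 ± 0.38 (adjusted p = 0.0165). These were the only 2 of 80 genes called higher (background 7.64%). The call of Cox6b2 held in every alternative, while that of Cox7a1 was lost without Stella-GFP+ ES replicate 1 (1.18, adjusted p = 0.108) and without either day 7 array.

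A further 16 of the 80 genes were called lower at day 7 (background 12.9%): 7 of complex I, 5 of the ATP synthase, 2 of complex IV and 1 each of complexes II and III. The median change of the 80 was -0.34, against -0.15 over all features. Ndufa8, an accessory subunit of complex I, had the largest called fall, from 2.52 and 3.12 to 0.95 and 1.67 (-1.51 ± 0.28, adjusted p = 0.00362). In the ATP synthase, Atp5a1, the alpha subunit of its F1 head, read 7.49 and 7.95 in ES cells and 6.60 and 6.71 at day 7 (-1.07 ± 0.25), and Atp5g3, a gene of the membrane c-ring, read 7.33 and 6.93 against 6.15 and 6.31 (-0.90 ± 0.23). In these 3 genes all day 7 arrays lay below all ES arrays. A second probe of Atp5a1, also above background on all 18 arrays, changed by -0.42. The lower calls depended on the scaling. Quantile normalization moved the median change of the 80 genes to 0.01 and left 5 called higher and 4 lower, scaling to the array median left 2 and 3, and normexp background correction left 2 and 0. Of the 18 calls, Cox6b2 alone held in every alternative. The summed fibroblast level was 2.76 to 4.35 in Stella-GFP+ ES cells and 2.14 to 2.18 at day 7, where 6 of the 12 genes were above background. That of the germ cell genes was 5.29 to 5.45 and 5.58 to 5.72, and that of the ES cell genes 8.41 to 8.61 and 7.8 to 7.87. Their part in the result was not tested.

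In the Dazl-GFP line few genes of the family were called, and most of the rises were tissue-restricted isoforms of complex IV. Between Dazl-GFP+ ES cells and day 12, limma called 5 of 80 genes higher (background 13.1%) and 2 lower (background 14.2%), with a median change of 0.01 (all features -0.11). At day 16 it called 4 higher (background 11.1%) and 4 lower (background 13.6%), with a median of -0.11 (all features -0.15). Both days were compared with the same ES arrays. Of these rises, 4 at each day were Cox6a2, Cox6b2, Cox7a1 and Cox8c. Both counts of rises are below the share over all features. Marker genes moved in the same comparisons. The summed level of 12 fibroblast genes was 5.37 to 5.49 in Dazl-GFP+ ES cells, with 11 above background, 1.41 to 1.47 at day 12, with 9, and 2.0 to 2.02 at day 16, with 12. The summed level of 8 germ cell genes was 4.54 to 4.6, 6.0 to 6.09 and 5.75 to 5.81, and that of 7 ES cell genes 7.71 to 7.72, 7.04 to 7.11 and 7.13 to 7.16. Their part in the result was not tested.

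Cox7a1, the muscle form of a small subunit of complex IV, read 2.76 and 2.66 in Dazl-GFP+ ES cells, 5.36 and 5.41 at day 12 and 4.97 and 4.91 at day 16. Both PGC groups lay well above the ES cells, and both changes were called (2.67 ± 0.38, adjusted p = 0.000474, and 2.23 ± 0.38). Cox6b2 read 1.25 and 1.36 in ES cells, 3.0 and 3.09 at day 12 and 2.88 and 2.90 at day 16 (1.74 ± 0.24, adjusted p = 0.000392, and 1.58 ± 0.24, adjusted p = 0.000789). The groups of PGCs and ES cells did not overlap in either gene. These calls held in every alternative, and on the slide that held both groups the day 12 changes were 2.75 for Cox7a1 and 1.74 for Cox6b2.

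Cox6a2, the muscle form of a regulatory subunit of complex IV, peaked at day 12. It was not above background on the Dazl-GFP+ ES arrays (-4.16 and -5.03) or at day 7, read 0.09 and 0.11 at day 12 and -2.16 and -1.93 at day 16, and stood at -3.84 and -3.94 at E13.5. Day 12 lay above every other array of the series. It was at least 17.1-fold higher at day 12 than in ES cells (adjusted p = 6.12e-06), where the bound sets the day 12 mean against the lowest signal measurable on the ES arrays. At day 16 it was at least 3.87-fold higher than in ES cells (adjusted p = 0.000463), a call lost under normexp background correction (0.51, adjusted p = 0.408). Both bounds hold only for the main processing, since normexp shrank the day 16 change below its bound. The day 12 bound is likewise no firm minimum, although the day 12 call held in every alternative.

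Cox8c, the testis form of a small subunit of complex IV, was near background in ES cells and higher in the Dazl-GFP+ germ cells of culture, gonad and testis. The Dazl-GFP+ ES arrays read -6.17 and -3.44, with 1 of the 2 above background, day 12 read -2.23 and -2.29, and day 16 read -1.84 and -1.88. E13.5 read 0.00 and -0.86, and juvenile testis read 1.51 and 1.01, the highest of the series. No neighbouring groups in this order overlapped, but none of the steps between germ cell groups was called. The rises against ES cells were called at day 12 (2.54 ± 0.73, adjusted p = 0.0235) and at day 16 (2.95 ± 0.73, adjusted p = 0.0128), but they rest on the dim ES array. Without Dazl-GFP+ ES replicate 1 they were 1.18 and 1.58, neither called, and under normexp background correction the day 12 change was -0.06 (adjusted p = 0.894). With slide as a block the day 12 change was 2.03 (adjusted p = 0.0751).

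**Figure D2:**
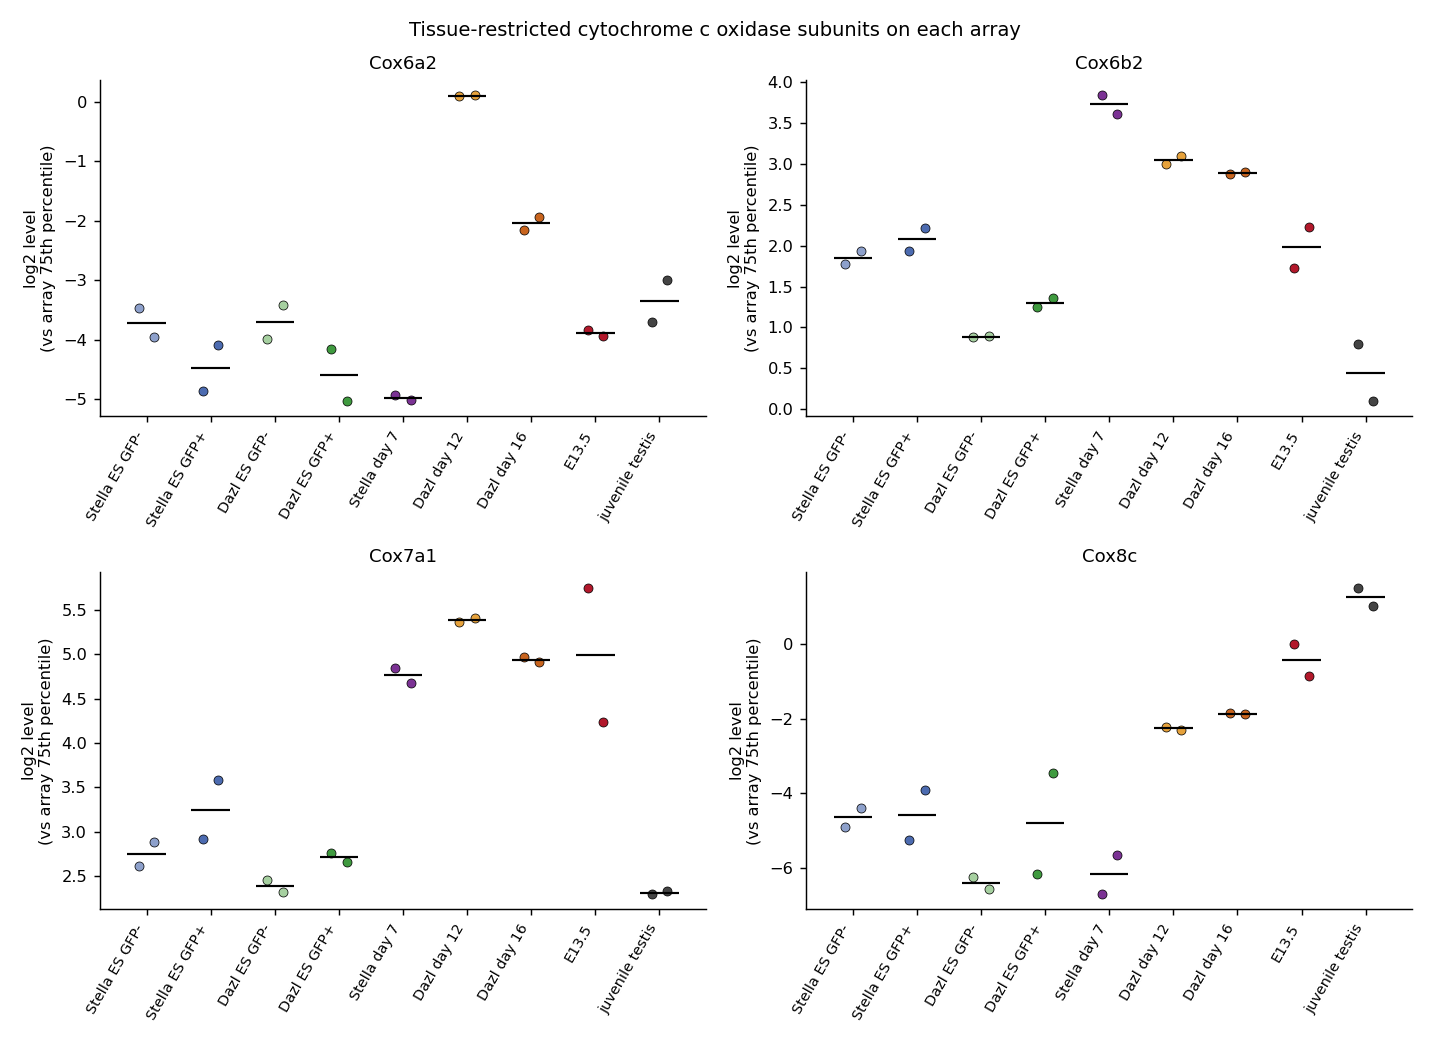
Level of the 4 tested tissue-restricted complex IV isoforms (log2 relative to the array's 75th percentile) on each array of the 9 groups. Dots are arrays and bars the mean of a group. Cox6a2 peaks at day 12 (0.09 and 0.11), Cox7a1 is high from day 7 to E13.5, Cox6b2 is highest at day 7, and Cox8c is highest in juvenile testis (1.51 and 1.01).

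The genes that were lower in the Dazl-GFP PGCs were few. Cox4nb, the Emc8 gene and no respiratory subunit, read 3.55 and 3.89 in ES cells and 2.34 and 2.31 at day 12 (-1.39 ± 0.23, adjusted p = 0.00131), a call that held in every alternative. At day 16 it read 2.66 and 2.55 (-1.12 ± 0.23). Cox4i1, the common form of subunit 4 of complex IV, read 7.58 and 7.44 in ES cells and 6.79 and 6.79 at day 16 (-0.72), and Sdha (-0.49) was also called lower there. The calls of Cox4i1 and Sdha were lost in most alternatives. Quantile normalization raised the median change to 0.29 at day 12 and 0.25 at day 16, with 14 and 13 genes called higher and 1 lower each time.

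Day 16 and day 12 differed in 1 of 80 genes, Cox6a2, which fell by 2.14 on the log2 scale (SE 0.35, adjusted p = 0.0133, background 0.374% of features lower). The change was -2.25 and -2.04 within the 2 slides that held both groups. With slide as a block the adjusted p was 0.0808, under normexp background correction the change was -0.71 (adjusted p = 0.0589), and leaving out any array of either group ended the call. The median change of the 80 genes was -0.08 (all features -0.05). Normexp background correction called 43 other genes lower, with a median of -0.72 against 0.25 over all features, on a background of 37.7% of features called.

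E13.5 germ cells had higher levels of most oxidative phosphorylation genes than the day 16 PGCs. Limma called 53 of the 80 genes (66.2%) higher, on a background of 24.1% of features, and 2 (2.5%) lower, on a background of 18.3%. The median change was 0.68, against 0.19 over all features. In complex I 29 of 37 genes rose (median 0.88), in complex III 6 of 7 (0.86), in complex V 11 of 16 (0.65) and in complex II 2 of 4 (0.30). In complex IV 5 of 16 rose and 2 fell (0.48), and the 2 that fell, Cox6a2 (-1.84 ± 0.35) and Cox6b2 (-0.91), were isoforms that had been higher in PGCs than in ES cells.

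In complex I, Ndufs7, which carries the iron-sulphur cluster next to the ubiquinone site, read 4.37 and 4.40 at day 16 and 6.03 and 6.09 at E13.5 (1.67 ± 0.17, adjusted p = 2.36e-05). Ndufv1, the subunit that binds NADH, read 4.89 and 4.87 against 6.39 and 6.62 (1.62 ± 0.20, adjusted p = 7.71e-05). Ndufb2, an accessory subunit of the membrane arm, read 4.41 and 4.33 against 6.35 and 5.84 (1.73 ± 0.19, adjusted p = 4.91e-05). In all 3, both E13.5 arrays lay above all arrays of cultured cells. Ndufs5, another accessory subunit, read 5.92 and 5.93 against 7.64 and 7.08 (1.44), and Ndufb11, encoded on the X chromosome, read 5.35 and 5.30 against 7.14 and 6.43 (1.46).

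Outside complex I, Sdha read 2.23 and 2.12 at day 16 and 3.37 and 3.18 at E13.5 (1.10, adjusted p = 0.000296). A second probe of Sdha, also above background on all 18 arrays, changed by -0.03. Its partner Sdhb, the iron-sulphur subunit, read 3.72 and 3.67 against 4.15 and 4.22 (0.49). Uqcrh, the hinge protein of complex III, read 6.09 and 6.05 against 7.61 and 7.4 (1.43 ± 0.19, adjusted p = 0.000127). These 3 genes were higher on both E13.5 arrays than at day 16, and Sdhb alone of them overlapped with ES cells. Cox7a2, the widely expressed counterpart of Cox7a1, read 3.93 and 3.91 against 5.38 and 5.83 (1.69 ± 0.21, adjusted p = 9.63e-05). Atp5e, the epsilon subunit of the ATP synthase, read 5.71 and 5.64 against 7.26 and 7.10 (1.5 ± 0.18, adjusted p = 6.42e-05). The c-ring gene Atp5g1 also rose, from 5.30 and 5.27 to 6.25 and 6.71 (1.19).

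**Figure D3:**
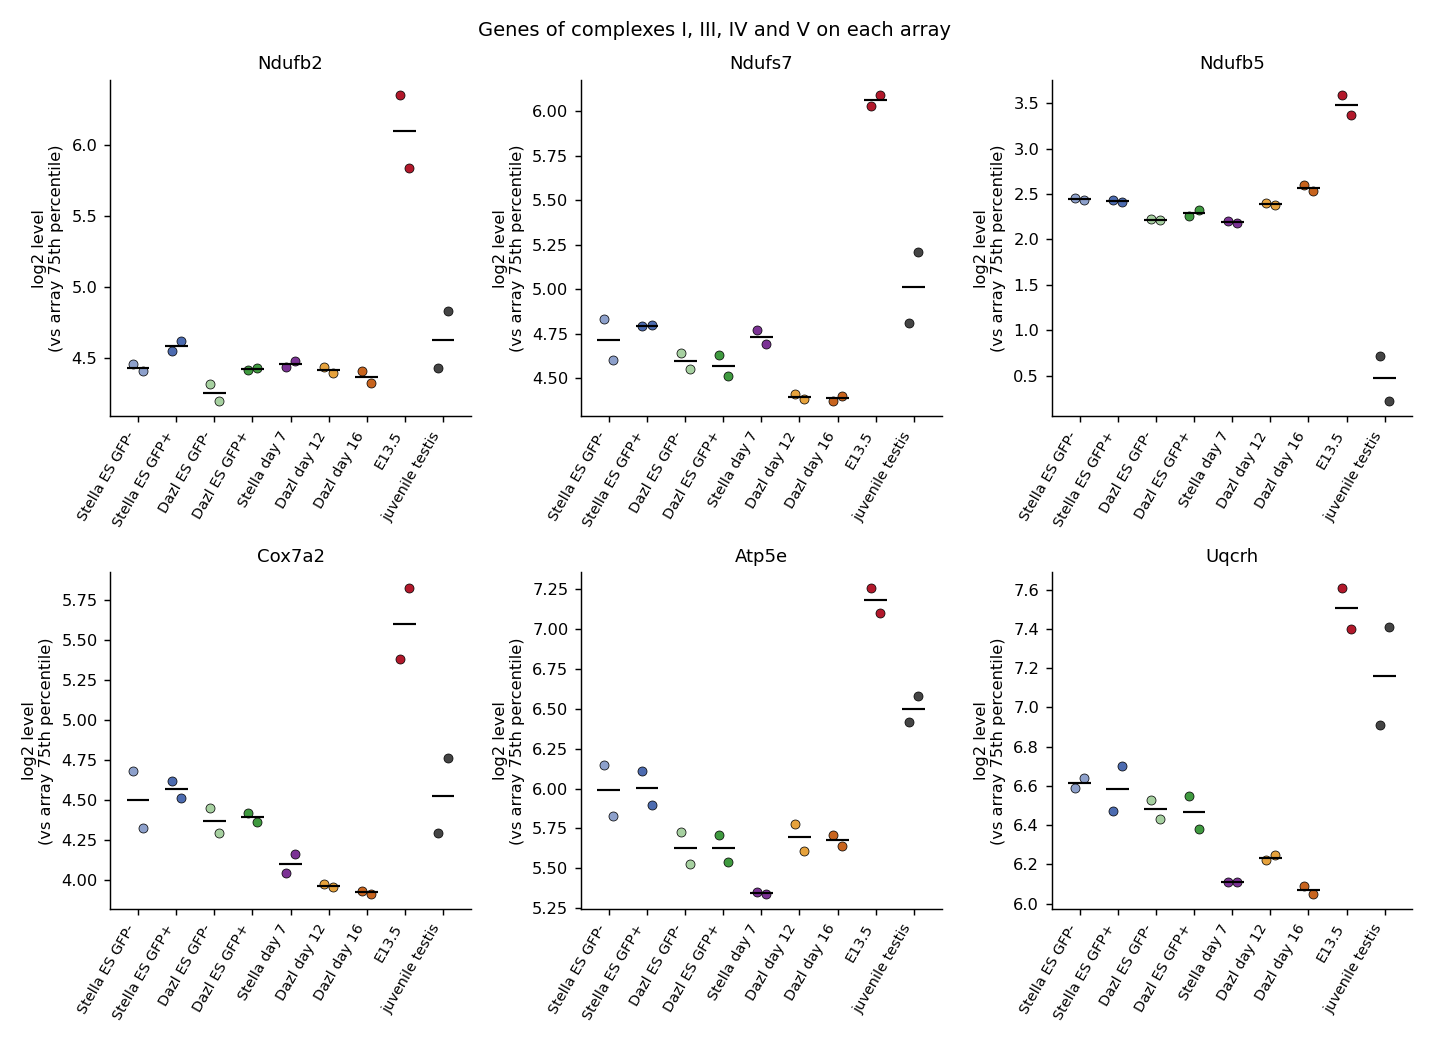
Level of 6 genes (Ndufb2, Ndufs7, Ndufb5, Cox7a2, Atp5e and Uqcrh; log2 relative to the array's 75th percentile) on each array of the 9 groups. Dots are arrays and bars the mean of a group. Each is highest at E13.5, and Ndufb5 is lowest in juvenile testis (0.72 and 0.22).

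The size of the E13.5 rise depended on the scaling. Under quantile normalization, which forces the arrays to 1 distribution, 24 genes were called higher and 6 lower, with a median of 0.30 against 0.09 over all features. The values of Ndufb2, Ndufs7, Cox7a2, Atp5e and Uqcrh were then 1.32, 1.30, 1.26, 1.11 and 1.0. The complex II median turned to -0.05, and Atp5h, Ndufa3, Ndufs8 and Sdhd were called lower. Of the 55 calls, 26 remained under quantile normalization and 25 held in every alternative, among them every rise named here except that of Sdhb. The lower call of Cox6b2 was lost under normexp background correction and without either day 16 array or the library labelled E13.5 replicate 1. Without the library labelled E13.5 replicate 1, 42 genes were called higher and 2 lower (median 0.71). Ndufb2 then rose by 1.47, Ndufs5 by 1.16, Ndufb11 by 1.1, Uqcrh by 1.33, Cox7a2 by 1.91, Atp5e by 1.42 and Atp5g1 by 1.42. The 2 lower genes without that library were Cox6a2 (-1.9) and Cox7a1 (-0.7), and Cox6b2 changed by -0.66. With both E13.5 arrays the change of Cox7a1 was 0.06. Without day 16 replicate 1 or 2 the calls numbered 32 and 31. Among the 19 genes with several probes above background on all 18 arrays, the probes of Atp5a1, Atp5h, Sdha and Uqcrq changed in opposite directions. Outside these 19, the reported probes of Ndufb8 and Cox4nb changed by 0.81 and 0.14. Their second probes, above background on 17 arrays, changed by -1.35 and -0.35.

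Markers of other cells moved in the same comparison. The summed level of 6 erythroid genes was 1.14 to 1.88 at E13.5, with 5 of 6 above background on both arrays, and -1.51 to -0.95 at day 16, with 4 of 6. That of 12 fibroblast genes was 0.59 to 0.93 at E13.5, with 8 above background, and 2.0 to 2.02 at day 16, with 12. Of 7 macrophage genes 7 were above background at E13.5 and 3 at day 16, with summed levels of -0.55 to 0.02 and -0.15. The summed level of 8 germ cell genes was 7.66 to 7.82 against 5.75 to 5.81, and that of 7 ES cell genes 4.70 to 5.91 against 7.13 to 7.16. Their part in the result was not tested.

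**Figure D4:**
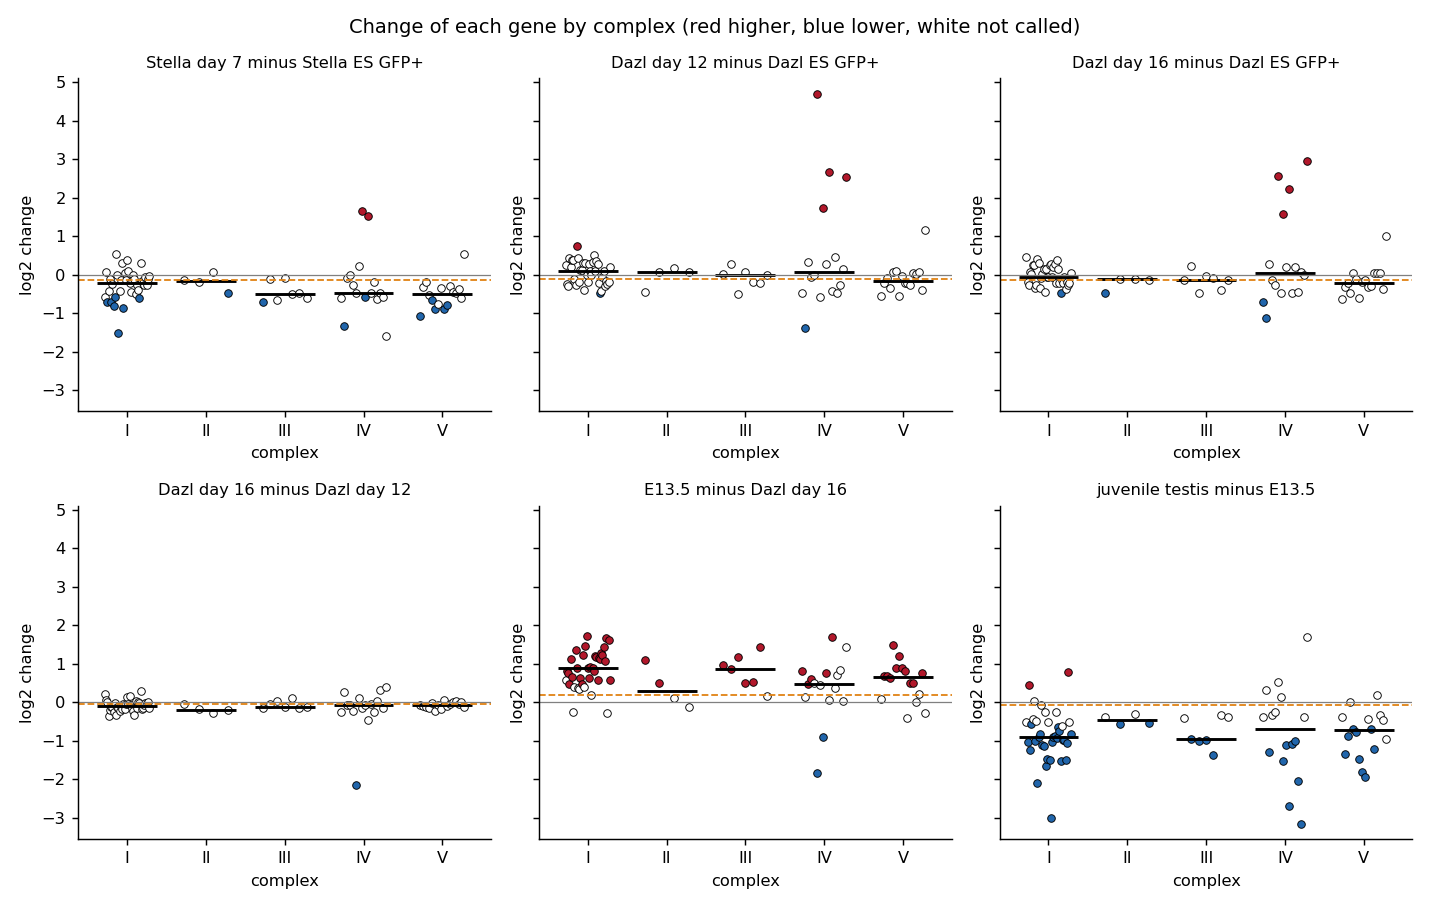
Log2 change of each tested gene in the comparisons, by complex. Points are genes, red where called higher, blue where called lower and white where not called. The black bar is the median of the complex and the dashed orange line the median of all features. Most points of complex I lie above the orange line in E13.5 against day 16 (median 0.88) and below it in juvenile testis against E13.5 (median -0.89).

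Juvenile testis germ cells had lower levels of most of these genes than the E13.5 germ cells, with which they shared a slide. Limma called 48 of 80 genes (60%) lower, on a background of 18.9% of features, and 2 higher, on a background of 16%. The median change was -0.82, against -0.08 over all features. By complex, 25 of 37 genes fell in complex I (median -0.89), 2 of 4 in complex II (-0.46), 4 of 7 in complex III (-0.94), 8 of 16 in complex IV (-0.69) and 9 of 16 in complex V (-0.73). This comparison shares the E13.5 arrays with the preceding one, so a high E13.5 value enters both.

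Some of the falls went below the level of all other cells. Ndufb5, an accessory subunit of the membrane arm of complex I, read 3.59 and 3.37 at E13.5, between 2.18 and 2.60 in all cultured cells, and 0.72 and 0.22 in juvenile testis (-3.01 ± 0.18, adjusted p = 7.55e-07). Ndufa6, another accessory subunit, read 4.79 and 4.80 against 2.63 and 2.76 (-2.10 ± 0.21, adjusted p = 2.18e-05). Atp5g3 and Atp5g2, which encode the same mature c-ring protein as Atp5g1, read 7.79 and 7.5 against 5.44 and 5.97 (-1.94 ± 0.23) and 7.27 and 7.67 against 5.49 and 5.84 (-1.80 ± 0.20). In these 4 genes both juvenile arrays lay below all 16 other arrays. Cox5a, a subunit of complex IV without a tissue isoform, fell likewise to 6.21 and 6.14 (-1.29 ± 0.15, adjusted p = 8.04e-05, a call lost under quantile normalization, where the change was -0.55), as did Uqcrfs1, the Rieske iron-sulphur protein of complex III, to 3.04 and 2.97 (-1.36 ± 0.18, adjusted p = 0.000192).

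Other falls returned genes to the range of cultured cells or differed between the juvenile arrays. Cox7a1 read 5.75 and 4.24 at E13.5 and 2.30 and 2.33 in juvenile testis (-2.68), close to the lowest ES array (2.32). Cox7c, a small subunit of complex IV, read 3.22 and 3.58 against 1.94 and -1.44 (-3.15 ± 0.77, adjusted p = 0.00808), and the change was -1.46 without juvenile replicate 2 and -4.84 without replicate 1. Cox7b read 4.29 and 4.96 against 1.90 and 3.26 (-2.04 ± 0.35, adjusted p = 0.00099), and Ndufb11 read 7.14 and 6.43 against 4.54 and 5.72 (-1.66 ± 0.33). The E13.5 and juvenile arrays did not overlap in these 4 genes, and the calls held in every alternative. Without the library labelled E13.5 replicate 1 the changes were -1.93 for Cox7a1, -2.38 for Cox7b and -1.3 for Ndufb11.

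The 2 called rises were small. Ndufs8, an iron-sulphur subunit of complex I, read 1.33 and 1.68 at E13.5 and 2.05 and 2.55 in juvenile testis (0.79), and Ndufa11 read 2.53 and 2.70 against 3.05 and 3.06 (0.44). Neither call held in every alternative. The change of Cox8c, 1.69 ± 0.73, was not called (adjusted p = 0.0951). Quantile normalization called 29 genes lower and 9 higher, with a median of -0.27. Of the 50 calls 31 remained under it, and 26, all of them lower, held in every alternative. Without the library labelled E13.5 replicate 1, 49 were lower and 1 higher (median -0.74), with Ndufb5 at -2.9 and Atp5g2 at -2.0. All 8 Sertoli cell genes were above background on both juvenile arrays, against 5 of 8 at E13.5, with summed levels of 2.65 to 4.17 and 7.71 to 8.70. At day 7 the Sertoli sum was 7.51 to 7.56 although 7 of the 8 genes, all but Rhox5, were not above background. A high sum can thus rest on Rhox5 alone. Of 12 fibroblast genes 11 were above background in juvenile testis, against 8 at E13.5, with summed levels of 2.87 to 3.15 and 0.59 to 0.93. The part of these cells in the result was not tested.

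**Figure D5:**
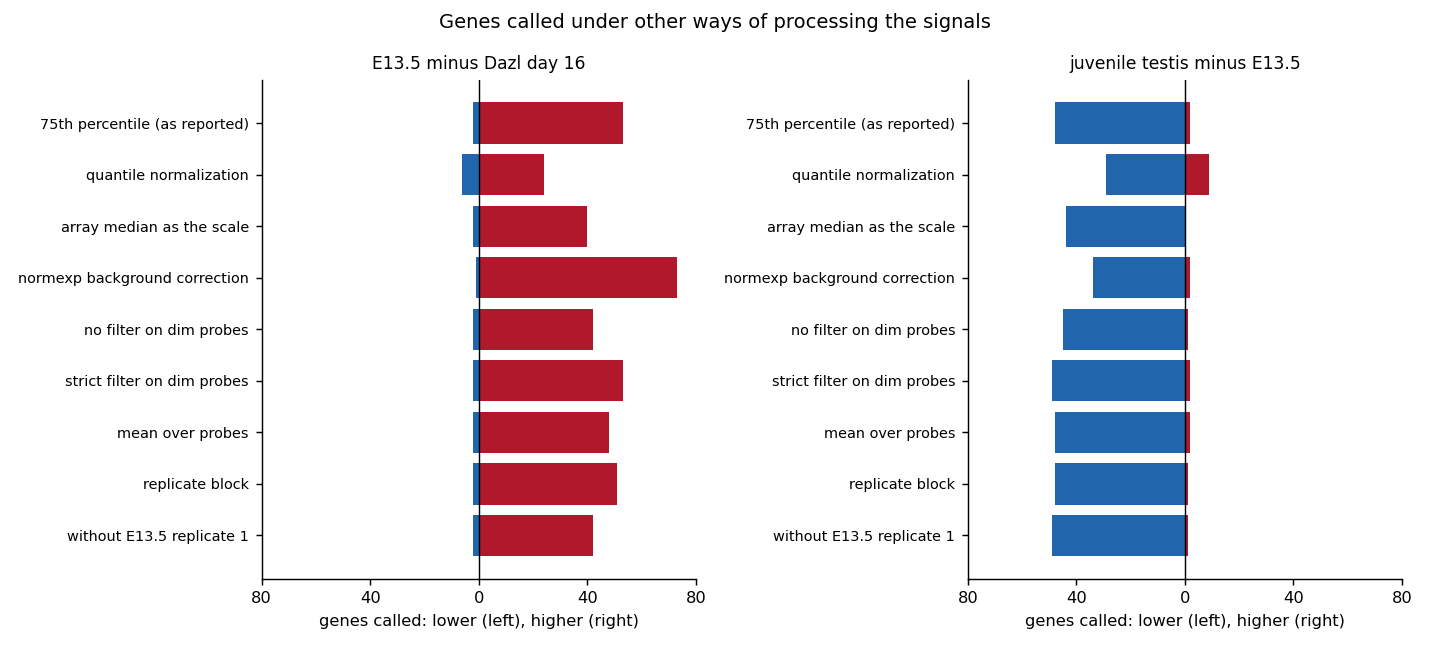
Number of the 80 genes called lower (bars to the left) and higher (bars to the right) under each setting, for E13.5 against day 16 and juvenile testis against E13.5. The split is most even under quantile normalization, with 24 higher and 6 lower in the first comparison and 9 higher and 29 lower in the second.

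Genes that serve the same pathway outside the complexes were read from 5 lists, whose counts are set beside the shares called over all features. These shares were 24.1% higher and 18.3% lower at E13.5 against day 16, 16% and 18.9% in juvenile testis against E13.5, 7.64% and 12.9% at day 7, 13.1% and 14.2% at day 12, and 11.1% and 13.6% at day 16. In the citric acid cycle and pyruvate dehydrogenase list, 9 of 18 tested genes (50%) were higher and 2 (11.1%) lower at E13.5 than at day 16, and 2 (11.1%) were higher and 10 (55.6%) lower in juvenile testis than at E13.5. Without the library labelled E13.5 replicate 1 the counts were 7 and 2, and 2 and 10. Ogdh, a subunit of the 2-oxoglutarate dehydrogenase complex, rose by 1.53 ± 0.22 at E13.5 (0.24 and 0.31 at day 16, 2.15 and 1.47 at E13.5, and 1.19 without replicate 1), and fumarase, Fh1, by 0.90 ± 0.16. Idh2, the mitochondrial NADP isocitrate dehydrogenase, read 1.76 and 1.35 at E13.5 and -4.07 and -2.23 in juvenile testis (-4.7 ± 0.51, and -4.5 without E13.5 replicate 1), the lowest values of the series. Idh3g, a subunit of the NAD isocitrate dehydrogenase, fell from 6.02 and 5.47 to 3.86 and 3.53 (-2.05 ± 0.20, and -1.77 without that array). Quantile normalization split the list evenly at E13.5, with 5 higher and 5 lower. In the PGCs, 0 were higher and 2 (11.1%) lower at day 7, 3 and 3 (16.7% each) at day 12, and 2 and 2 (11.1% each) at day 16, near or below the shares over all features.

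The lists hold 3 germ cell or testis forms, singled out after their values were seen. Pdha2, the testis form of the E1 alpha subunit of pyruvate dehydrogenase, was above background only at day 12 (-2.70 and -2.94), day 16 (-2.45 and -2.40), E13.5 (-2.27 and -3.19) and in juvenile testis (0.04 and 0.71). It was at least 2.96-fold higher at day 16 than in ES cells, a call lost under normexp background correction, where the day 16 change was 0.53 and the day 12 change turned to -0.21. In juvenile testis it was 3.11 ± 0.51 higher on the log2 scale than at E13.5 (3.57 without E13.5 replicate 1). Slc25a31, the germ cell form of the ADP/ATP carrier, was not above background on the Dazl-GFP+ ES arrays (-4.62 and -4.05). It read 1.65 and 1.71 at day 12 and 1.84 and 1.90 at day 16, at least 51.1-fold and 58.3-fold higher. These bounds depend on the processing, as under normexp background correction Slc25a31 rose by 2.26 and 1.95 on the log2 scale, both called. At E13.5 it read 3.31 and 1.99 and in juvenile testis 3.14 and 3.57. Cyct, the testis cytochrome c, read 0.97 and 0.88 in Dazl-GFP+ ES cells and 3.86 and 3.83 at day 12 (2.92 ± 0.50). Its juvenile arrays differed, at 1.51 and 3.08, and its E13.5 arrays read 4.34 and 3.07.

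Of 16 tested carrier and exchange genes, 1 (6.25%) was called higher and 2 (12.5%) lower at day 7, 3 (18.8%) and 2 (12.5%) at day 12, 3 (18.8%) and 1 (6.25%) at day 16, and 4 (25%) and 3 (18.8%) at E13.5 against day 16. With so few genes these counts are near the shares over all features. In juvenile testis against E13.5, 0 were higher and 11 (68.8%) lower. Without the library labelled E13.5 replicate 1 the counts were 4 and 1 at E13.5, and 1 and 9 in juvenile testis. Slc25a4 and Slc25a5, the common ADP/ATP carriers, read 5.86 and 7.22 and 5.91 and 6.53 at E13.5, and 2.68 and 3.08 and 3.65 and 4.89 in juvenile testis (-3.66 ± 0.34 and -1.95 ± 0.34, and -4.34 and -2.25 without E13.5 replicate 1). Both were lowest in juvenile testis of all groups, where Slc25a31 was high. Vdac1, a channel of the outer membrane, read 6.39 and 6.36 at day 16 and 3.45 and 5.16 at E13.5 (-2.07 ± 0.39). The lower E13.5 array was the library labelled replicate 1, and without it the change was -1.22 (adjusted p = 0.000183).

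Among 17 tested assembly factors outside the name rule, 9 (52.9%) were higher and 0 lower at E13.5 than at day 16, with Lrpprc, which stabilises mitochondrial messenger RNAs, up by 1.5 ± 0.18 and Cox17, the copper chaperone of complex IV, by 1.08 ± 0.18. In juvenile testis 2 (11.8%) were higher and 6 (35.3%) lower than at E13.5, with Nubpl, an iron-sulphur assembly factor of complex I, at -2.05 ± 0.18. Without E13.5 replicate 1 both pairs of counts were the same. At day 7 the count was 1 (5.88%) higher and 5 (29.4%) lower, at day 12 4 (23.5%) and 2 (11.8%), and at day 16 1 (5.88%) and 2 (11.8%). Of 75 mitochondrial ribosome genes, 38 (50.7%) were higher and 1 (1.33%) lower at E13.5 than at day 16 (median 0.57), and 1 (1.33%) was higher and 39 (52%) lower in juvenile testis than at E13.5 (median -0.55). Quantile normalization reduced these to 26 higher and 4 lower and to 3 higher and 25 lower. Without E13.5 replicate 1 the counts were 48 and 0, and 1 and 46. Mitochondrial ribosome genes were also lower in the cultured PGCs than in ES cells, 29 (38.7%) at day 7, 19 (25.3%) at day 12 and 21 (28%) at day 16, with 0 higher each time. Of 17 biogenesis genes, 7 (41.2%) were higher and 2 (11.8%) lower at E13.5 than at day 16. The 7 include Gabpb2, which was not above background in either group and whose change turned from 1.78 to -1.63 under normexp background correction. In juvenile testis 1 (5.88%) was higher and 2 (11.8%) lower, both below the shares over all features, and without E13.5 replicate 1 the counts were 6 and 2, and 2 and 4. None of the 5 lists had a called gene in either ES cell sort or between days 16 and 12, where the shares over all features were 0.427%, 2.83%, and 0.585% higher and 0.374% lower, so 0 called is near the background.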

How the data were processed

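Per the file headers, the submitters ran Agilent Feature Extraction 9.1.3.1. Its processed signal, an intensity with background removed and spatial trend corrected but no scaling of arrays against each other, was the deposited value used. The day 7 arrays used another extraction protocol than the rest.

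Control spots and 172 probes flagged as outliers were dropped, replicate spots were averaged, and a level is the log2 ratio of a signal to the 75th percentile on its array. A feature is a gene name, with its brightest probe, and was tested if it exceeded background on both arrays of at least 1 group. No spot was saturated. A single limma 3.58.1 model (R 4.3.3, 9 residual degrees of freedom) covered all groups, with two-sided moderated tests, and the fit was tested on simulated data. The smallest detectable change is limited by 2 arrays per group.

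Where a called gene was dim on both arrays of the lower group, the fold is a lower bound under this processing only. Gene names were matched to RefSeq, 80 of 82 by accession and 2 by symbol. Cox7b2 and Ndufa4l2 were not analysed here. Values of some single genes are not reported here, though the counts and medians include them. The members, lists, tests and alternatives were chosen with earlier results of these data known, and lists were written from textbook knowledge. Named were the complex II and IV genes and c-ring isoforms, the 8 largest called rises and falls, the smallest p in each complex and direction, up to 4 called genes per list and direction, and the 10 smallest F-test p. Genes listed by separation of arrays, by motif, by likeness or for their call under quantile normalization, and Nrf1, Tfam and Ppargc1a, were named after their values were seen.

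Alternatives were quantile normalization, the array median as the scale, normexp background correction with an offset of 50, no filter or a stricter filter on dim probes, the mean over probes, slide or replicate number as a block, and leaving out each array. The labels give no pairing by replicate number, so it was a block only as an alternative. The correlation of same-numbered deviations lay between -0.03 and 0.56 in the 8 comparisons of 2 groups, and was over 0.1 in 6, among them the sorts and days 12 and 16, whose same-numbered arrays shared slides.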

Additional observations from a re-analysis of the deposited data

How the results depend on the processing

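The counts of called genes for any difference among the 9 groups (54 to 68, against 61) and the 0 called in both sorts stayed within 1.5 times under all alternatives run. At day 7 against Stella-GFP+ ES cells the 18 calls became 9 under quantile normalization, 5 with the array median as the scale and 2 under normexp, and leaving out 1 array gave 4 to 26. At day 12 against Dazl-GFP+ ES cells the 7 calls became 15 under quantile normalization and 4 with slide as a block, and 4 to 11 without 1 array. At day 16 the 8 calls became 14 under quantile normalization, 5 with the array median as the scale, 4 under normexp and 5 with slide as a block, and 4 to 8 without 1 array. Between days 16 and 12 the single call became 43 under normexp and 0 with slide as a block, and 0 to 1 without 1 array. At E13.5 against day 16 the 55 calls became 30 under quantile normalization and 31 to 48 without 1 array. For juvenile testis against E13.5, 50 calls became 42 to 59 without 1 array, and no other alternative moved them by over 1.5 times. The change of Cox8c at day 12 reversed to -0.06 under normexp. The cause of these moves was not tested.

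With the replicate number as a block, the calls were 0 in both sorts and in their difference, 16 at day 7, 6 at day 12, 6 at day 16, 1 between days 16 and 12, 53 at E13.5, 49 in juvenile testis and 60 over the 9 groups, so no count moved by over 1.5 times. Over all 36 pairs of groups the correlation of same-numbered deviations lay between -0.14 and 0.56. A fixed slide term could not be fitted for E13.5 or day 7 against other cultured cells. With slide as a random block all 18 calls at day 7, all 55 at E13.5 and all 61 over the 9 groups were kept. Juvenile testis and E13.5 shared 1 slide. The median of all features moved to -0.57 at E13.5 under normexp, against 0.19, so the 73 genes called higher there stand on a shifted scale. Signal over background limits Cox6a2, Cox8c, Pdha2 and Slc25a31 in ES cells to bounds or dim values.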

Other observations

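The known regulators of mitochondrial biogenesis gave the following values. Gabpa, the DNA-binding subunit of the GA-binding protein, read 1.87 and 1.86 in Stella-GFP+ ES cells, 0.52 and 0.56 at day 7, 0.89 and 0.94 at day 16 and 2.06 and 1.59 at E13.5. It was called lower at day 7 than in ES cells (-1.32 ± 0.18, limma adjusted p = 0.000626) and higher at E13.5 than at day 16 (0.91 ± 0.18, adjusted p = 0.00176). The day 7 call held in every alternative, while the E13.5 call was lost with the mean over probes, where the change was 0.04, and the change was 0.67 without the library labelled E13.5 replicate 1. Nrf1 read between -0.11 and 0.78 on all 18 arrays. Tfam, the mitochondrial transcription factor, read 4.08 and 4.07 at day 16, 3.08 and 4.45 at E13.5, and 3.21 and 3.82 in juvenile testis, so the E13.5 arrays spanned the values of both other groups. Ppargc1a was not above background in Stella-GFP ES cells or at day 7. Polg2, the accessory subunit of the mitochondrial DNA polymerase, rose by 1.62 ± 0.29 at E13.5.

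Of the 82 genes, 3 lie on the X chromosome. In juvenile testis against E13.5, Cox7b (-2.04) and Ndufb11 (-1.66) were called lower and Ndufa1 (-0.51) was not, and the library labelled E13.5 replicate 1, in which the Y-linked genes were not above background, enters each of these values. Without it the changes were -2.38, -1.3 and 0.17.

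The features whose levels followed single isoforms most closely over the 18 arrays are given as a description; the arrays share groups, and the features were picked as the highest of all. For Cox8c they included Tcte3 (Pearson's r of 0.954), Piwil4 (0.953) and Mael (0.949), for Cox7a1 Fbxo6b (0.951), for Cox6b2 Cd97 (0.946), and for Cox6a2 A530040E14Rik (0.92) and Tcstv3 (0.916).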
